A study of Acromyrmex echinatior with 18 samples.

Results

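The sites described here are the positions in the protein-coding part of transcripts at which RNA and DNA of the leaf-cutting ant Acromyrmex echinatior differed. They were all rows of the authors' site table whose annotated element includes CDS, 304 of 17229 sites. Of these, 127 were A-to-G changes and 177 were changes of another kind, and the 2 sets are described apart. The element was CDS alone at 267 sites, CDS together with a transposable element at 33 and CDS of one gene with an intron of another at 4. The study compared 3 female castes of wild-collected colonies kept in the laboratory: gynes (virgin females able to turn into queens) and workers of a large and a small size class. Each caste was sampled once from each of 3 colonies, written A, B and C, with no treatment. RNA came from pooled heads, 50 per library for gynes and large workers and 200 for small workers, and DNA came from the remaining bodies of the same pools, which gave 9 RNA and 9 DNA libraries. A library is therefore the average of many whole heads. The spread between libraries of a caste holds differences between colonies together with those of library preparation and read counting. The table holds edited sites and no expression levels, so the head label could not be checked with marker genes.

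In animals, ADAR enzymes turn adenosine into inosine in double-stranded RNA, and sequencing reads inosine as G. Most such editing falls in repeats, introns and untranslated regions, often with many adenosines edited within 1 duplex. Editing in coding sequence can change the encoded amino acid, which is called recoding. In insects, recoding is best known from ion channels and synaptic proteins of the nervous system. ADAR does not make the other base changes. Whether a site changed an amino acid was not analysed here.

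RNA reads over the 304 coding sites numbered 27039 to 46237 per library. The median coding A-to-G site had 14 to 43 RNA reads per library and the median site of the other changes 37 to 83. Every site had at least 10 DNA reads and 0 DNA reads with the edited base in all 9 libraries, and every site of the table had at least 1 library with 3 or more edited RNA reads and a level of 5% or more. The editing level is the share of a site's reads in a library that carry the edited base. Levels are means of the library levels over those sites at which all 9 libraries have 10 or more RNA reads, called tested sites here, unless reads are said to be pooled. This held for 56 of the 127 A-to-G sites and 146 of the 177 others.

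Coding sequence was the annotated element with the lowest share of A-to-G changes. A-to-G made up 41.78% of coding sites (95% Wilson interval 36.4 to 47.4), against 91.62% in the 5' UTR, 95.66% in the 3' UTR, 96.8% in introns and 98.29% in transposable elements outside genes. Coding sites were 0.780% of all A-to-G sites of the table and 18.6% of its 952 other changes. Among the other coding changes 86 were G-to-A, 45 C-to-T, 17 T-to-C, 9 C-to-A and 7 T-to-A, with 5 each of G-to-T and A-to-T, 2 A-to-C and 1 T-to-G. The share of A-to-G was 56.99% among the coding sites that the authors called in at least 2 libraries and 35.21% where the element was CDS alone.

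**Figure D1:**
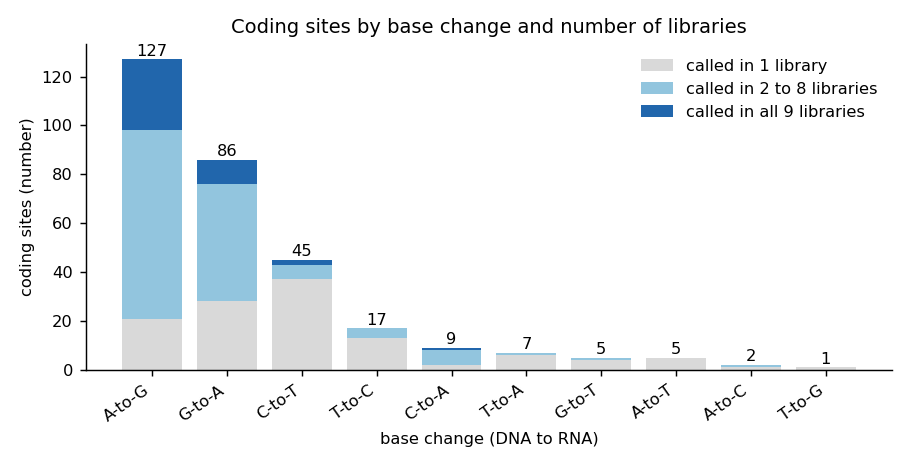
Number of coding sites (vertical axis) for each base change from DNA to RNA (horizontal axis), stacked by how many of the 9 RNA libraries the authors called the site in. All 9 libraries were called at 29 of 127 A-to-G sites, 10 of 86 G-to-A sites and 2 of 45 C-to-T sites.

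The A-to-G sites recurred across libraries more often than the others. The authors called 106 of the 127 A-to-G sites in at least 2 libraries and 29 in all 9. Of the 177 other sites, 80 were called in at least 2 libraries, 13 in all 9 and 97 (54.8%) in a single library, against 21 (16.54%) of the A-to-G sites. Single-library sites were also a larger share of the other changes than of A-to-G in the 3' UTR, with 36.23% against 2.497%. The library that carried a single-library call had a median of 3 edited reads at the A-to-G sites and 4 at the others, and the other 8 libraries had 0 edited reads at 18 of the 21 and 73 of the 97 sites. The kinds differed among themselves: 28 of 86 G-to-A, 37 of 45 C-to-T and 13 of 17 T-to-C sites were called in 1 library, but only 2 of the 9 C-to-A sites. Each library called 58 to 90 coding A-to-G sites and 39 to 63 others, and the 3 small worker libraries, which were also the deepest over coding sites, called the most A-to-G sites (87 to 90).

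Levels were high at part of the A-to-G sites and low at nearly all others. The median tested A-to-G site was edited at 6.39% (range 0.575 to 85.5), with 4 sites at 50% or more, 8 from 20% to under 50%, 19 from 5% to under 20% and 25 under 5%. The median tested site of the other changes stood at 1.27% (range 0.556 to 11.3), and 137 of 146 were under 5%. Medians were 1.74% for G-to-A (74 sites), 0.889% for C-to-T (35) and 3.98% for C-to-A (9). When the library with the highest level was set aside at each site, the median was 5.65% for A-to-G and 0.360% for the others. As every site had at least 1 library at 5% or more, the mean over 9 libraries is bounded from below.

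**Figure D2:**
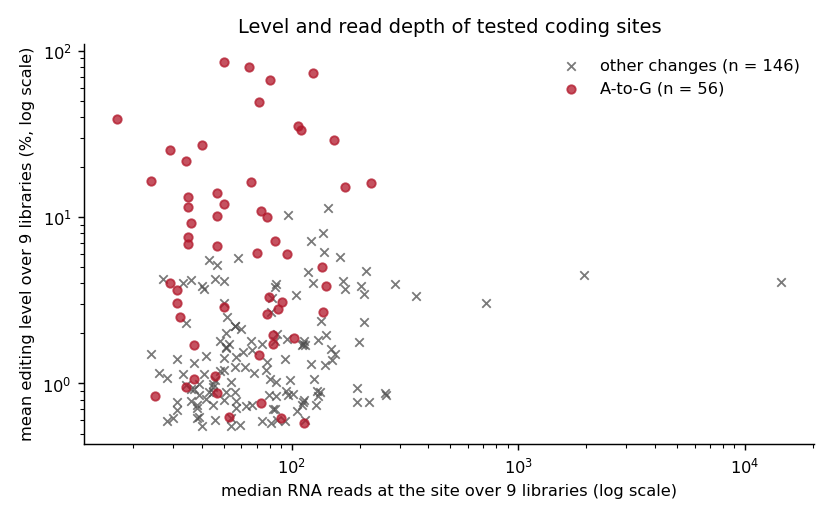
Mean editing level over 9 libraries (vertical axis, %, log scale) against the median number of RNA reads at the site (horizontal axis, log scale) for the 56 tested A-to-G sites and the 146 tested sites of other changes. A-to-G sites reach 85.5%, whereas the other changes lie between 0.556% and 11.3% over all depths, and the point with the most reads is the G-to-A site of sls.

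Ribosomal protein L7 held the most edited tested coding site. RpL7 (Aech_09983), a protein of the large ribosomal subunit, had 9 A-to-G sites between positions 548754 and 548778 of scaffold 237, minus strand, all annotated as CDS and transposable element. At position 548764 the level was 90.2%, 66.0% and 77.4% in gynes of colonies A, B and C, 92.3%, 76.8% and 91.4% for large workers and 94.8%, 93.2% and 87.0% for small workers, with 31 to 73 reads. The castes overlapped there (adjusted p for the 3 castes 0.213). The other 8 sites ranged from 6.72% to 21.9%, so that levels differed more than 10-fold within 25 bases, and the base next to the most edited one stood at 10.2%. Reads of other copies of a transposable element could be placed at such sites, which was not tested. The 6 further sites of this gene in the table lay in introns.

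The highest levels outside transposable elements were spread over proteins of several roles. The fly gene l(1)G0196 is the named ortholog of Aech_17761, whose site at position 430314 of scaffold 104 had levels of 87.5%, 80.7% and 77.1% in gynes, 80%, 56.5% and 78.7% for large workers and 89.8%, 87.0% and 77.6% for small workers. The lowest of these, in large workers of colony B, rests on 23 reads (95% Wilson interval 36.8 to 74.4), and the castes overlapped. CG31365 (Aech_08485), named zinc finger protein 84, followed with 73.5% and is described with the caste tests.

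Aech_01796 (scaffold 7, plus strand), with the protein name tipE but no fly ortholog named, had 3 A-to-G sites within 19 bases. In Drosophila, tipE is an auxiliary subunit of the voltage-gated sodium channel. At position 3505066 levels were 70.7%, 84.8% and 55.2% in gynes, 62.5%, 69.2% and 63.0% for large workers and 63.1%, 67.5% and 61.8% for small workers. At position 3505057, 9 bases upstream, they were 50.0%, 73.5% and 33.3%, then 52.5%, 50.0% and 48.6%, then 42.0%, 43.8% and 52.1%. Both positions overlapped between castes, with gynes of colony B highest and gynes of colony C lowest at each. The third, position 3505075, averaged 16.3% in gynes, 8.45% for large workers and 5.50% for small workers. It was the 1 tested coding A-to-G site at which all 3 small worker libraries lay below all 3 gyne libraries.

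CG2926 and Glut1 were also among the genes of the 10 highest tested A-to-G sites. CG2926 (Aech_02488), a PHD and RING finger protein, reached 38.9% at position 1034457 of scaffold 142, with only 11 to 41 reads per library and levels from 18.2% to 55.6%. Glut1 (Aech_04260), a glucose transporter, stood at 20.8%, 21.7% and 19.6% in gynes, 35%, 36.4% and 25.0% for large workers and 20.9%, 33.3% and 31.1% for small workers at position 1475490 of scaffold 482. Large workers lay above gynes without overlap, and the 3-caste test did not call the site (adjusted p = 0.732). The wah gene and the Aech_10515/Aech_10516 locus are described below.

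Many highly edited A-to-G sites, some of them in genes known from the nervous system, were too thinly covered for the tests. Of the 71 untested A-to-G sites, 28 had a level of 50% or more over the pooled reads of 9 libraries, against 0 of the 31 untested sites of other changes. Those 28 levels rest on a median of 25 pooled reads, with 3 at the least covered site and 219 at the most. Over all untested sites the median was 95 pooled reads for A-to-G and 229 for the others. A site of few reads reaches 3 edited reads only at a high level, and how far this bears on the levels of such sites was not tested. The following genes were chosen after their values were seen.

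Ca-alpha1T (Aech_10328), a T-type voltage-gated calcium channel, carried G in 81 of 95 pooled reads at position 1265757 of scaffold 520 (85.3%, 95% Wilson interval 76.8 to 91.0). Its library levels ranged from 25.0% in large workers of colony B, on 4 reads, to 100% in all 3 gyne libraries, on 4 to 7 reads each. Quiver (qvr, Aech_12422), in Drosophila a membrane-linked protein that acts on the Shaker potassium channel and on sleep, had 2 sites 16 bases apart on scaffold 763. Pooled levels were 75.3% (69.2 to 80.6) at position 13119 and 50.3% (43.4 to 57.1) at position 13103, and the authors called both in all 9 libraries. At position 13119 the libraries gave 61.5%, 46.2% and 67.4% in gynes, 76.2%, 75% and 76.7% for large workers and 93.2%, 86.4% and 69.0% for small workers. Every large and small worker library there lay above every gyne library, with 4 to 44 reads and no test.

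The dual specificity phosphatase cdc14 (Aech_08580) had 3 A-to-G sites within 48 bases of scaffold 750, with pooled levels of 96.6%, 50.0% and 83.1% on 29, 66 and 65 reads. Caps (Aech_02927), which primes dense-core vesicles for release, had 5 coding A-to-G sites from 6.12% to 57.7% pooled, beside 48 sites in its 3' UTR. TBPH (Aech_17635), the RNA-binding protein TDP-43, had 5 coding and 40 3' UTR sites. Both genes thus carried most of their sites outside the coding sequence. The metabotropic GABA receptor subunit GABA-B-R1 (Aech_04993) stood at 9.39% pooled, on 181 reads.

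Sites were unevenly shared among genes. The 127 A-to-G sites fell in 76 genes or gene pairs, of which 53 had 1 site, 13 had 2 and 10 had 3 or more. After Aech_15275, RpL7, Caps and TBPH no gene had more than 3. Aech_15275, named for the histone methyltransferase SETMAR, had the most, 11 sites over 297 bases of scaffold 260, all also annotated as transposable element, with pooled levels of 3.15% to 20.8% and too few reads in at least 1 library at each. The 177 other sites fell in 173 genes or gene pairs, of which 169 had 1 site and 4 had 2 (Mes-4, Unc-89, jar and CG6695). Both kinds were present in cdc14, Mes-4 and the titin gene sls. At least 1 site outside coding sequence was present in 27 of the 76 genes with A-to-G sites (35.5%) and in 28 of the 173 others (16.2%).

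Coding A-to-G sites lay close together and the others did not. The nearest other site of the table, of any kind, was within 100 bases of 74 of 127 A-to-G sites (58.3%, Wilson interval 49.6 to 66.5) and of 5 of 177 other sites (2.82%, 1.21 to 6.44). The median distance was 32 bases for A-to-G and 13770 for the others. Coding A-to-G sites were still less crowded than those elsewhere, since 91.95% of A-to-G sites in the 3' UTR and 83.37% in introns had a neighbour within 100 bases. Neighbouring sites share transcripts and reads, so these shares are descriptions without a test.

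**Figure D3:**
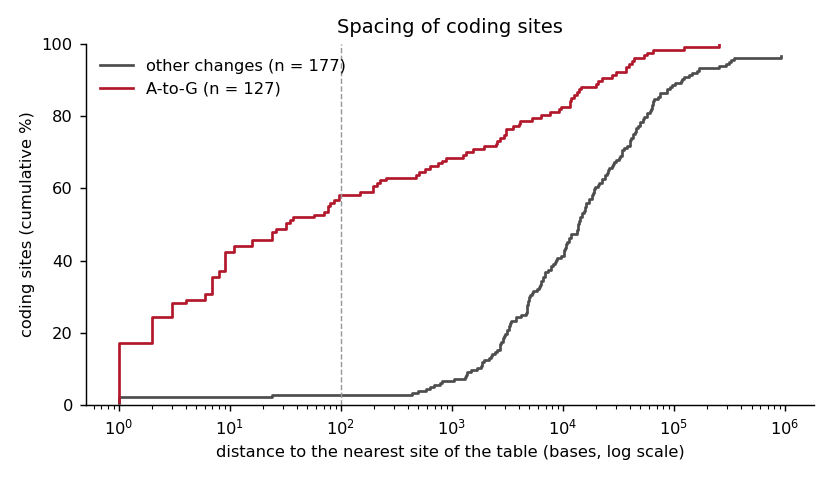
Cumulative share of coding sites (vertical axis, %) by distance to the nearest other site of the table on the same scaffold (horizontal axis, bases, log scale) for 127 A-to-G sites and 177 other sites, of which 6 were alone on their scaffold. The dashed line marks 100 bases, reached by 58.3% of A-to-G and 2.82% of other sites.

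Crowding went with recurrence and level. Of the A-to-G sites called in 2 or more libraries 65.1% had a neighbour within 100 bases, against 23.8% of those called in 1. Tested A-to-G sites with such a neighbour had a median level of 10.5% (30 sites), and those without had 2.84% (26 sites). Of the 30, RpL7 gave 9, all annotated as transposable element, and a median without them was not taken. The second set held the isolated sites of l(1)G0196 and CG31365, 2528 and 3096 bases from the nearest other site, and both were among the 3 most edited. On adjacent bases there were 12 A-to-G pairs and 2 pairs of other changes. In the 6 tested A-to-G pairs the upstream base was the more edited in 3, and the wider differences ran in both directions. All of these pairs but those of Aech_02209 and CG31712 lay in RpL7, some sharing a base, so they are not independent. The RpL7 pair at positions 548764 and 548765 had 10.2% upstream and 85.5% downstream. The uncharacterized Aech_02209 had 1.49% and 10.9%, and CG31712 (Aech_07156), a gene of unknown function here, had 25.2% and 4.03%. The pairs of other changes lay in jar, myosin VI, and in Unc-89, a giant protein of the muscle M-line.

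Other changes with the highest levels stayed at or below 11.3%. The C-to-A site in CG8290 (Aech_01628), named transcriptional regulator ATRX, led at position 2960954 of scaffold 35. Levels were 12.4%, 7.10% and 11.97% in gynes, 19.5%, 8.16% and 5.22% for large workers and 14.8%, 14.0% and 8.82% for small workers. CG18473 (Aech_05087), a phosphotriesterase-related protein, followed with G-to-A at 10.3%. Gynes of colony C stood highest there at 25.0%, on 132 reads, and the other 8 libraries at 5.21% to 17.5%. G-to-A sites in eas (ethanolamine kinase), jar and CG5131 (a mitochondrial protease) averaged 8.06%, 7.15% and 6.18%. The C-to-T site in CoIV (Aech_02935), a subunit of cytochrome c oxidase, averaged 5.78%. Castes overlapped at all 6 sites, and adjusted p for the 3 castes ran from 0.259 to 0.981.

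Word patterns in protein and gene names placed 123 coding sites, 57 of them A-to-G, in at least 1 of 12 functional lists. The lists held between 0 and 21 coding A-to-G sites. Transcription and chromatin had the most, 21 A-to-G sites in 6 genes and 15 others, but 11 of the 21 were those of the SETMAR-named gene and 5 those of TBPH. Translation and ribosome had 10 and 5, of which RpL7 gave 9. Cytoskeleton and motors had 7 in 7 genes and 3 others, with A-to-G levels of up to 2.51% at the 3 tested sites. Of its 4 untested A-to-G sites, that in the dynein heavy chain gene Dhc64C (Aech_17720) had 22.5% of 89 pooled reads edited, that in scra (Aech_07262) 24.4% of 41, and those in form3 and betaTub60D 2.44% and 1.62%.

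The lists tied to excitability were small. Ion channels and receptors had 4 A-to-G sites in 4 genes and 3 others. Of the 4, 2, in Gmap and in a nuclear receptor corepressor (Aech_12182), matched only through the words of their names. The 3 others were in Ror and sev, named as receptor tyrosine kinases, and in IA-2, named as a receptor-type tyrosine phosphatase. Synaptic release and membrane traffic had 5 and 2, the 5 being those of Caps. The tipE-named gene and qvr matched no list. Kinases and phosphatases had 4 A-to-G and 18 others, the largest number of other changes. Of the 4 A-to-G sites, 3 were in cdc14 and 1 in syd, which is named as a kinase-interacting protein and matched by name only. The kinase gene Tor (Aech_17291), with 1 A-to-G site, matched no list.

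Energy metabolism and mitochondria had 3 A-to-G and 8 others, muscle structure 1 and 5, RNA binding and processing 2 and 6, transporters 2 and 4 and proteases 0 and 4. Names alone placed jar, myosin VI, with muscle structure, and the DNA helicase RecQ4 and the DNA-binding protein Chd1 with RNA binding. The 2 A-to-G sites of the RNA-binding list were in CG7564 (Aech_16948), a Luc7-like splicing protein, at 16.04% and 15.2% with similar means in all castes. The word patterns for head chemosensory and cuticle genes, which also covered opsins, matched 0 coding sites of either kind. That count covers names only and does not show that such genes lack coding sites. Over all lists the caste tests below called 1 A-to-G site, in CG31365, and 1 other site, in sls.

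Averaged over the tested coding A-to-G sites, small workers were the most edited. Library means were 14.0%, 14.0% and 11.2% in gynes of colonies A, B and C, 15.2%, 12.1% and 14.3% for large workers and 16.5%, 17.8% and 15.9% for small workers. All 3 small worker libraries lay above all others, while gynes and large workers overlapped. Caste means were 13.1% ± 1.62, 13.9% ± 1.60 and 16.7% ± 0.972 (SD, n = 3 each). Within colonies small workers exceeded gynes by 2.49, 3.80 and 4.69 percentage points. Over the 5044 tested A-to-G sites outside coding sequence the means were 12.9% ± 0.227, 14.9% ± 0.604 and 17.3% ± 0.215, a difference between small workers and gynes of 4.48 points against 3.66 ± 1.11 at coding sites (SD over 3 colonies). Whether these 2 differences are unequal was not tested. Heads were processed whole, so a change of editing within a cell type and a change in the share of cell types cannot be told apart, and small worker libraries also differed in depth and in the number of pooled heads.

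The other changes did not follow that order. Their means were 2.12%, 1.54% and 1.58% in gynes, 2.15%, 2.38% and 2.44% for large workers and 2.02%, 1.41% and 2.31% for small workers, or 1.75% ± 0.326, 2.32% ± 0.152 and 1.91% ± 0.457 (SD, n = 3 each). Large workers were highest in all 3 colonies, by 0.0263, 0.838 and 0.862 points over gynes. Median reads at the other coding changes were 65, 37 and 43 for large workers of colonies A, B and C. They were 55, 51 and 61 in gynes and 83, 75 and 72 for small workers. How far depth and the selection of sites by their edited reads bear on the means of other changes was not tested. Within this set, G-to-A averaged 2.12%, 3.04% and 2.28% and C-to-T 1.19%, 1.81% and 0.875% in gynes, large workers and small workers. Outside coding sequence the 474 other changes also had their highest mean in large workers, 3.49% ± 0.199 against 3.08% ± 0.210 in gynes and 3.20% ± 0.182 in small workers.

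**Figure D4:**
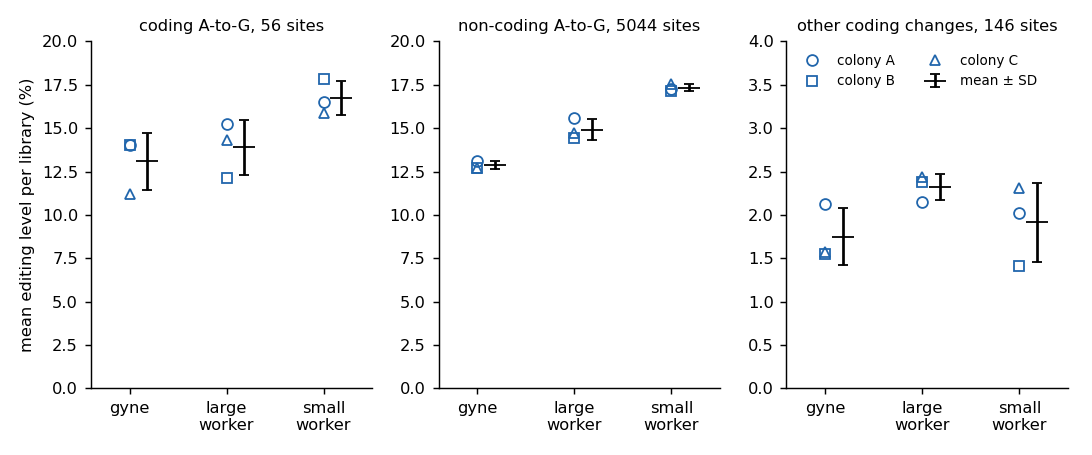
Mean editing level per library (vertical axis, %, scale to 20 in the first 2 panels and to 4 in the third) by caste, with open symbols for colonies A, B and C and a bar for the caste mean ± SD (n = 3). Small worker libraries lie between 15.9% and 17.8% at coding A-to-G sites, above all gyne and large worker libraries, whereas at other coding changes large workers have the highest mean, 2.32%.

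Site by site, small workers had the higher mean at 38 of 56 tested coding A-to-G sites and the lower at 15, and were the highest caste at 35. Outside coding sequence small workers were above gynes at 77.4% of tested A-to-G sites. Small worker levels lay above gyne levels without overlap at 8 of 56 coding sites (14.3%), where the share over all tested A-to-G sites was 24.3%, and below without overlap at 1, where it was 1.61%. At the other coding changes small workers were above gynes at 68 of 146 sites and below at 55, and the median difference was 0.

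In the per-site test (quasi-binomial model, dispersion moderated by limma, Benjamini-Hochberg adjustment over 5720 sites, adjusted p under 0.05) the 3 castes differed at 4 of 56 coding A-to-G sites, or 7.14%. The share called was 5.47% of all tested A-to-G sites and 5.00% of all tested sites, so coding sites were close to the background. Of the 146 other coding sites 1 was called. Between small workers and gynes 5 of 56 A-to-G sites were called (8.93%, against 7.73% of all tested A-to-G sites and 6.91% of all tested sites), all higher in small workers, and 0 of 146 others, of which 20 had an unadjusted p under 0.05. With colony as a replicate block the other changes gave 2 calls over the 3 castes and 1 for small workers against gynes. Without gynes C the A-to-G calls fell to 2 over the 3 castes and 1 for small workers against gynes, and without small workers B to 2 and 2. Without gynes A or small workers C they were 2 over the 3 castes.

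The 2 remaining contrasts gave few calls. Between large workers and gynes 0 A-to-G sites were called (6 at unadjusted p under 0.05) and 1 other (background 0.157%), and between small and large workers 1 A-to-G and 1 other (background 0.559%). With limma on arcsine-square-root levels, and with each site's own dispersion in place of the moderated one, 0 coding sites were called in every contrast. In limma the 3-caste test had 6 A-to-G and 0 other sites at unadjusted p under 0.05, and small workers against gynes had 7 and 2. The calls therefore depend on the model and on how the spread between libraries is estimated. Limma also moderates the spread, but on another scale and without weighting levels by reads. Own dispersions rest on the few libraries of a single site. Which of these differences removed the calls was not tested. Taken relative to the overall shift between castes, the 3-caste test and small workers against gynes called 1 A-to-G site each, and small workers against gynes also 1 other. The shift is that of caste mean levels over all tested sites, most of them A-to-G, so it does not describe the other changes.

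CG31365 had the clearest caste difference of the coding A-to-G sites. At position 339063 of scaffold 18 (minus strand) levels were 71.0%, 56.2% and 56.6% in gynes, 77.4%, 66.0% and 77.3% for large workers and 84.6%, 83.8% and 89.1% for small workers, on 66 to 283 reads. All small worker libraries lay above all others, and large workers overlapped gynes. The adjusted p was 1.82e-05 for the 3 castes and 4.73e-06 for small workers against gynes, a difference of 24.6 percentage points. It was called without any single library and relative to the overall shift. With limma the adjusted p was 0.0999 and with the site's own dispersion 0.156.

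The wah gene (Aech_02313), a homolog of fly waharan, had 2 sites 6 bases apart on scaffold 89, and no other site in the table. At position 803485 levels were 24.3%, 34.1% and 17.8% in gynes, 43.2%, 37.5% and 30.9% for large workers and 38.0%, 52.7% and 38.9% for small workers. At position 803491 they were 24.8%, 31.6% and 20%, then 34.5%, 32.1% and 30.6%, then 41.8%, 43.8% and 40.0%. Small workers lay above gynes without overlap at both, and above large workers at the second. The 2 sites are covered by much the same reads and are not independent. Adjusted p for the 3 castes was 0.0214 and 0.0419. The contrast of small workers with gynes was no longer called at position 803485 without gynes C (adjusted p = 0.156) or small workers B (0.106), or at position 803491 without gynes A (0.0597), gynes C (0.180) or small workers B (0.0520).

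A site at position 269279 of scaffold 21 (minus strand) lay in the CDS of one and an intron of the other of Aech_10515, uncharacterized, and Aech_10516, a putative UBR7-type ubiquitin ligase. Levels were 25.9%, 25.5% and 19.0% in gynes, 22.7%, 28.4% and 18.7% for large workers and 28.8%, 45.2% and 47.4% for small workers. Gynes and large workers overlapped, and all small worker libraries lay above both, that of colony A by little. The adjusted p was 0.000760 for the 3 castes. The call of small against large workers was lost without large workers A (adjusted p = 0.124), large workers C (0.323), small workers B (0.211) or small workers C (0.241), and that against gynes without gynes C (0.138). The 2 neighbouring sites at positions 269274 and 269277, within the same 6 bases, had mean levels of 5.03% and 3.88% and were not called.

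The site with the lowest level among the calls was in CG32521 (Aech_05366), a protein of unknown function here. At position 1358021 of scaffold 39 it had 0 edited reads in all 3 gyne libraries, on 54, 58 and 109 reads, with 7.69%, 3.90% and 1.18% in large workers and 6.71%, 6.72% and 1.74% in small workers. Every worker library had edited reads, but 0 edited reads in gynes of colonies A, B and C allow levels of up to 5.56%, 5.17% and 2.75%. All these limits lie above the levels of large and small workers of colony C. Those of gynes A and B also lie above the 3.90% of large workers of colony B. Small workers against gynes had an adjusted p of 0.0346 and the 3 castes 0.0967. The contrast was not called without gynes A, B or C or small workers A or B (adjusted p from 0.0843 to 0.196).

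The 1 called site of another kind was a G-to-A change in sls (Aech_07607), the titin gene of striated muscle, at position 187003 of scaffold 96 (minus strand). It had by far the most reads of the tested coding sites, 9964 to 18378 per library. Levels were 4.28%, 3.19% and 2.86% in gynes, 4.42%, 5.20% and 5.63% for large workers and 4.04%, 3.49% and 3.55% for small workers. Large workers lay above all other libraries and gynes overlapped small workers. The adjusted p was 5.69e-07 for the 3 castes and 2.38e-05 for large workers against gynes. The spread between its libraries, a dispersion of 13.2, was larger than the 3.81 that the test used for a site of this depth. With its own dispersion the adjusted p of large workers against gynes was 0.801 and with limma 0.832. That contrast was not called without gynes B (adjusted p = 0.101), and small against large workers not without large workers C (0.141) or small workers B (0.0670).

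**Figure D5:**
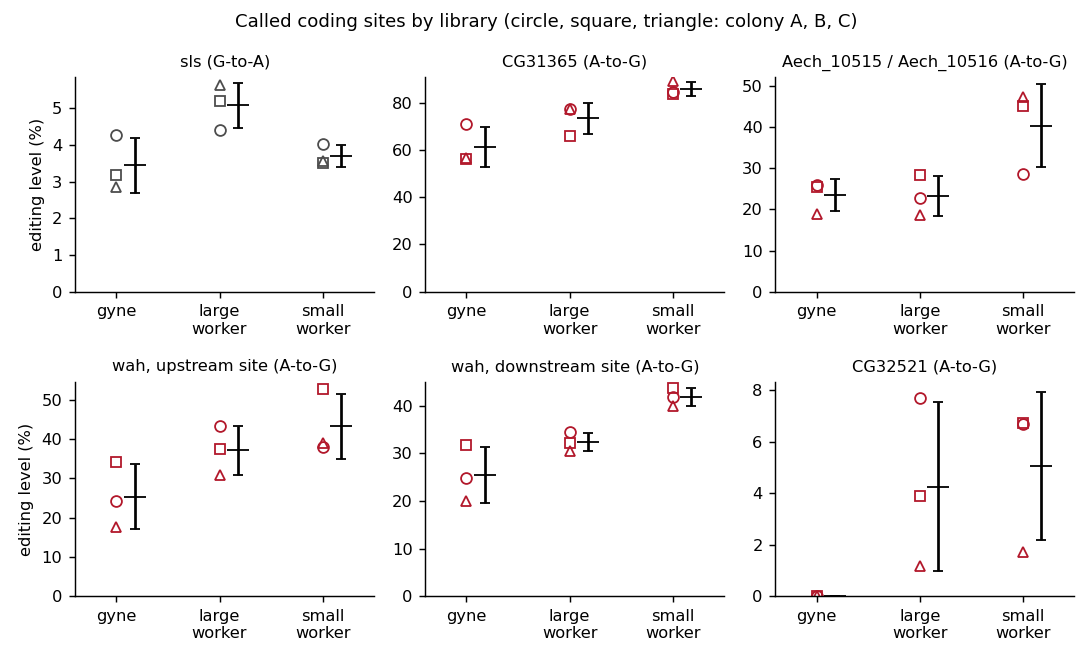
Editing level (vertical axis, %, from 0, scale set per panel) by caste at the 6 called coding sites, with open circles, squares and triangles for colonies A, B and C and a bar for the mean ± SD (n = 3). At the 5 A-to-G sites small workers have the highest mean and at the G-to-A site of sls large workers do, with levels of 4.42% to 5.63%.

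At TBPH and CG30491 the castes stood in another order, and neither site was called. At position 985721 of scaffold 142 TBPH stood at 20.6%, 17.9% and 16.9% in gynes, 13.6%, 9.09% and 4.60% for large workers and 20.8%, 15.6% and 27.9% for small workers, so that large workers lay below both other castes without overlap (adjusted p for the 3 castes 0.168). CG30491 (Aech_00893), a retinol dehydrogenase, stood at 7.02%, 10.8% and 2.5% in gynes, 8.33%, 12.1% and 14.5% for large workers and 3.64%, 2.06% and 3.53% for small workers. Large workers lay above small workers without overlap and gynes overlapped both (adjusted p = 0.221).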

How the data were processed

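Per the file headers, each cell of the authors' deposited table packs the counts of reads with the reference and the edited base for 1 site and library, and shows whether the authors called it. BWA 0.5.9-r16 is named in the submitters' processing notes. RNA was polyadenylated, sequenced strand-specifically and in paired reads of 90 bases, per the labels' protocols. How sites were chosen, and how elements of overlapping genes were ordered, is not given in the sources used here. Members, lists and rules for named sites were all chosen with earlier results of these data known.

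Levels are edited reads over all reads. The 5720 sites (5100 A-to-G) covered by 10 or more RNA reads in every library were fitted together in R 4.3.3 by quasi-binomial logistic regression. The Pearson dispersion was moderated by squeezeVar of limma 3.58.1 with a trend on depth and robust settings and kept at 1 or above, followed by F tests and Benjamini-Hochberg adjustment. Only coding sites are printed. The procedure was tested on simulated data. Colony letters pair the libraries. Deviations of same-colony libraries correlated with r of -0.00696 to 0.0512 and those of different colonies with r of -0.0394 to 0.0319. The 2 ranges overlap. No pair of replicate libraries agreed within sampling noise (9 pairs, chi-square over its degrees of freedom 1.73 to 2.08). Mean levels over sites carry no p.

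Named sites were the called ones, the 10 highest A-to-G and 6 highest other tested sites, the genes with the most sites, the 5 largest non-overlapping differences and up to 3 sites per list, some of which are given only in counts. Position 3505075 and CG30491 and the untested genes were named after their values were seen. Reads carry no molecular identifiers, so Wilson intervals (95%) cover counting error only. Alternatives were coverage minimums of 5 and 20 reads, the default prior, a replicate block, limma on arcsine-square-root levels, A-to-G sites alone, other summaries of levels and leaving out each library. Added after seeing the data were a fit relative to the overall shift and one with each site's own dispersion, and means outside transposable elements and without RpL7. Python 3.11.15 with matplotlib 3.10.9, pandas 2.3.3 and SciPy 1.17.1 made tables and plots.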

Additional observations from a re-analysis of the deposited data

How the results depend on the processing

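Calls of coding A-to-G sites numbered 4 over 3 castes, 5 for small workers against gynes, 0 for large workers against gynes and 1 for small against large workers. Calls of other coding changes numbered 1, 0, 1 and 1. The default prior, a coverage minimum of 5 and A-to-G sites alone kept every count within 1.5 times of these. With limma and with own dispersions both kinds had 0 calls in each comparison. With the replicate block the A-to-G calls were 5, 6, 0 and 1, and the other changes rose to 2 over 3 castes and 1 for small workers against gynes, and the block changed no other count. A coverage minimum of 20 also gave 2 and 1 there. Relative to the overall shift, A-to-G calls were 1, 1, 0 and 0 and others 1, 1, 0 and 1. Leaving out each library gave 2 to 4, 1 to 5, 0 and 0 to 1 A-to-G calls, and 1 to 3, 0 to 1, 0 to 1 and 0 to 1 others. The A-to-G count over 3 castes was 2 without gynes A or C or small workers B or C, and that of small workers against gynes was 1 without gynes C and 2 without small workers B. Other changes had 3 calls over 3 castes without large workers A and 1 for small workers against gynes without small workers A or B. The causes were not tested.

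At the sls site small workers exceeded gynes by 0.252 points. With 1 library left out the difference ran from -0.0390 (without gynes C) to 0.671 (without gynes A). In the quasi-binomial fit relative to the overall shift this contrast was called (adjusted p = 0.00645). That shift is taken over all tested sites, most of them A-to-G, whereas other coding changes differed by 0.165 points on average. The call therefore shows no caste difference of the sls site itself.

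Mean A-to-G levels of gynes, large and small workers were 11.1%, 11.9% and 14.2% with each gene once and 15.7%, 16.7% and 20.2% at sites called in 2 or more libraries. Small workers stood at 18.2% with reads summed, and at 15.4% outside transposable elements, which is the same set as without RpL7. Other changes stood at 2.84%, 4.08% and 2.93% with reads summed, at 2.73%, 3.43% and 2.85% where called in 2 or more libraries, and in large workers at 2.49% with 20 reads. Small workers kept the highest A-to-G mean and large workers the highest mean of other changes in each. Summing reads gives great weight to the called G-to-A site of sls, which had 9964 to 18378 reads per library. All 304 coding sites together had 27039 to 46237. Pooled levels of the sls site alone were 3.52%, 5.03% and 3.68%, castes ordered as above. The summed means of other changes are therefore not separate from that site, and their order without it was not tested. The A-to-G share moved to 56.99% where called in 2 or more libraries and to 35.21% for CDS alone. Within 50 bases lay 51.97% of A-to-G and 2.825% of other sites. Only 56 A-to-G sites had the depth for a test.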
